A study of Mus musculus with 12 samples.

Results

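At embryonic day 12.5 (E12.5), the microRNAs of the germ cell fraction of the mouse gonad were compared with those of its somatic fraction. All 616 microRNAs listed in the deposited table were included, in 4 of the series' 12 small RNA libraries. Those 4 are a primordial germ cell library and a gonadal somatic cell library from female embryos, and the same pair from male embryos. PGC stands for the germ cell fraction and SC for the somatic fraction.

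All embryos were of the CD1 strain and untreated, and the labels give no genetic change in any group. The gonads were freed of the mesonephros, pooled in groups of about 80 and separated on a magnetic column with beads against CD15, a surface sugar of early germ cells. Per the labels' protocols, PGC enrichment was 93 to 96% by an enzyme stain and SC purity was over 90%, so each fraction may hold some cells of the other. RNA under 100 bases was sequenced on a MiSeq, with 1 library per fraction, sex and day. The spread within a fraction is therefore that between its female and its male library. The fit pools this spread over all 12 libraries, in 6 groups of fraction and day. Standard errors (SE) and p-values at E12.5 thus also carry the female-male gaps of E11.5 and E13.5. They do not measure the spread between repeated isolations.

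PGCs are the embryonic precursors of eggs and sperm. They reach the gonad, keep some features of pluripotent cells for a few days, and then enter meiosis in females or arrest in males. The somatic cells around them include the supporting lineage that becomes granulosa or Sertoli cells, together with steroidogenic precursors, mesenchyme, and endothelial and blood cells. A microRNA is a short RNA that represses messenger RNAs mainly through its seed, bases 2 to 8 from its 5′ end, so that microRNAs with the same seed share many predicted targets.

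The sequences on which the comparison turns are given first, from RefSeq (GRCm38.p6), written 5′ to 3′ with the seed in capitals; 526 of the 616 listed names had a mature entry there. The miR-290 cluster on chromosome 7 (chr7:3218639-3220837, plus strand, from the first to the last listed mature sequence) is an early embryonic cluster. Of its members, miR-292a-5p, miR-290a-5p and miR-293-5p share the seed CUCAAAC, and miR-291a-3p, miR-294-3p and miR-295-3p share AAGUGCU with miR-302b-3p and miR-302d-3p, which lie on chromosome 3.
miR-292a-5p: aCUCAAACugggggcucuuuug
miR-290a-5p: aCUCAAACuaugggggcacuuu
miR-293-5p: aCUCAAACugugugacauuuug
miR-291a-3p: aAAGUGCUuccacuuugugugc
miR-294-3p: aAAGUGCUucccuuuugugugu
miR-295-3p: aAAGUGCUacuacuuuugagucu
miR-302b-3p: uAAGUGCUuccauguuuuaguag
miR-302d-3p: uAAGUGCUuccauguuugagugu

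The next sequences come from 3 related clusters whose members carry the seeds AAAGUGC and AUUGCAC. They are shown so that microRNAs of the same seed from different clusters can be set side by side. miR-17-5p and miR-20a-5p lie in the miR-17/92 cluster (chr14:115043684-115044459, plus strand) and miR-93-5p lies on chromosome 5 (chr5:138165574-138165596, minus strand). miR-20b-5p, miR-106a-5p and miR-363-3p lie on the X chromosome (chrX:52741697-52742563, minus strand). miR-92a-3p has 2 genomic copies, one in the chromosome 14 cluster (chr14:115044476-115044496) and one on the X chromosome. Counted from the 5′ end, miR-17-5p and miR-106a-5p differ at 1 base, U10A, and miR-20a-5p and miR-20b-5p differ at 2, U1C and U10C.
miR-17-5p: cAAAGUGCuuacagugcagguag
miR-20a-5p: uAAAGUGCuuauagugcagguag
miR-93-5p: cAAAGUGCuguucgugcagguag
miR-20b-5p: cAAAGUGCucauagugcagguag
miR-106a-5p: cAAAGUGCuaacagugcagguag
miR-92a-3p: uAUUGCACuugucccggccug
miR-363-3p: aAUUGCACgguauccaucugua

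The last set shows the other microRNAs with large differences. The miR-182 cluster (chr6:30165923-30169732, minus strand) encodes miR-182, miR-183 and miR-96, and the miR-200 family, here from chromosome 4 (chr4:156053916-156055742, minus strand) and chromosome 6, maintains the epithelial state. miR-741-3p and miR-470-5p are from the Fx-mir cluster of the X chromosome. miR-199a-3p and miR-126a-3p are abundant in mesenchyme and in endothelium, miR-379-5p is from the imprinted Dlk1-Dio3 region of chromosome 12, miR-335 lies in an intron of the imprinted gene Mest, and miR-202-5p is a gonadal microRNA.
miR-182-5p: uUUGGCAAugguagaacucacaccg
miR-183-5p: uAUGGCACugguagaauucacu
miR-200b-3p: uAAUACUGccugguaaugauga
miR-200c-3p: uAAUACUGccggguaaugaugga
miR-429-3p: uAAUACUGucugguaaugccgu
miR-741-3p: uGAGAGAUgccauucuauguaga
miR-470-5p: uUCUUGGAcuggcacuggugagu
miR-199a-3p: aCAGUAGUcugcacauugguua
miR-126a-3p: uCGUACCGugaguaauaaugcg
miR-379-5p: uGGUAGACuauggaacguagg
miR-335-5p: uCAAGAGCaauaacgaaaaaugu
miR-335-3p: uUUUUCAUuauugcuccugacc
miR-202-5p: uUCCUAUGcauauacuucuuu

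The 2 PGC libraries were shallow. They held 166804 (female) and 184174 (male) microRNA reads, the fewest of the 12 libraries, against 1492596 and 1380552 in SC, a gap of 7.5 to 8.95 times. The deposited table lists a microRNA at 0 when it had under 5 reads. That floor is 29.98 and 27.15 reads per 1000000 microRNA reads (RPM) in PGCs, but 3.35 and 3.62 RPM in SC. The deposited values sum to 105730 and 147413 in PGCs and to 1517813 and 1382782 in SC, so on that scale nearly every microRNA is lower in PGCs. Each library was therefore rescaled to RPM of its own sum, and the deposited scale is given beside it. On RPM, a value is a share of the library's microRNA reads: fewer cells of a type and less RNA per cell cannot be told apart, and a rise of some microRNAs lowers the share of the others.

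Of the 616 microRNAs, 70.3% had a mean of at least 10 RPM over the 4 libraries and were tested with limma on log2(RPM + 10). At an adjusted p (Benjamini-Hochberg) under 0.05, 79 were higher in PGCs, 137 were lower and 217 did not pass, so that 49.9% of those tested were called (18.2% higher and 31.6% lower). The median log2 difference over all tested was -0.63. Every one of the 216 had both PGC libraries on the same side of both SC libraries, but so did 79.9% of all tested (30% with PGCs above, 49.9% with PGCs below). Without the female or the male SC library, 29.1% and 30.5% of those tested were called. The 79 held 33.0% and 37.2% of the reads of female and male PGCs and 3.97% and 4.05% of SC reads. The 137 held 9.25% and 8.39% of PGC reads and 34.9% and 35.7% of SC reads.

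By the fitted difference, 64 called microRNAs were at least 4-fold higher and 87 at least 4-fold lower in PGCs, 44 were at least 8-fold higher and 17 at least 8-fold lower, and 22 were at least 16-fold higher and 2 at least 16-fold lower. The floor limits the lower side: 57 of the 137 lower calls were listed at 0 in both PGC libraries, and in 27 of these an SC library was itself under 29.98 RPM. With every value under 29.98 RPM set to 0 in all libraries, 77 were higher and 97 lower; 71 of the 77 and 94 of the 97 were among those called above.

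On the deposited scale, log2(value + 1), 29 were higher and 345 lower, 86.4% of those tested (6.7% and 79.7%), around a median of -4.10. Lower calls made up 92.2% of all calls on that scale, 63.4% at equal totals, 55.1% after quantile normalization and 52.8% in voom on the recovered reads. All 29 were also higher at equal totals and all 137 were also lower on the deposited scale, while 10 microRNAs were called higher at equal totals and lower on the deposited scale.

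**Figure D1:**
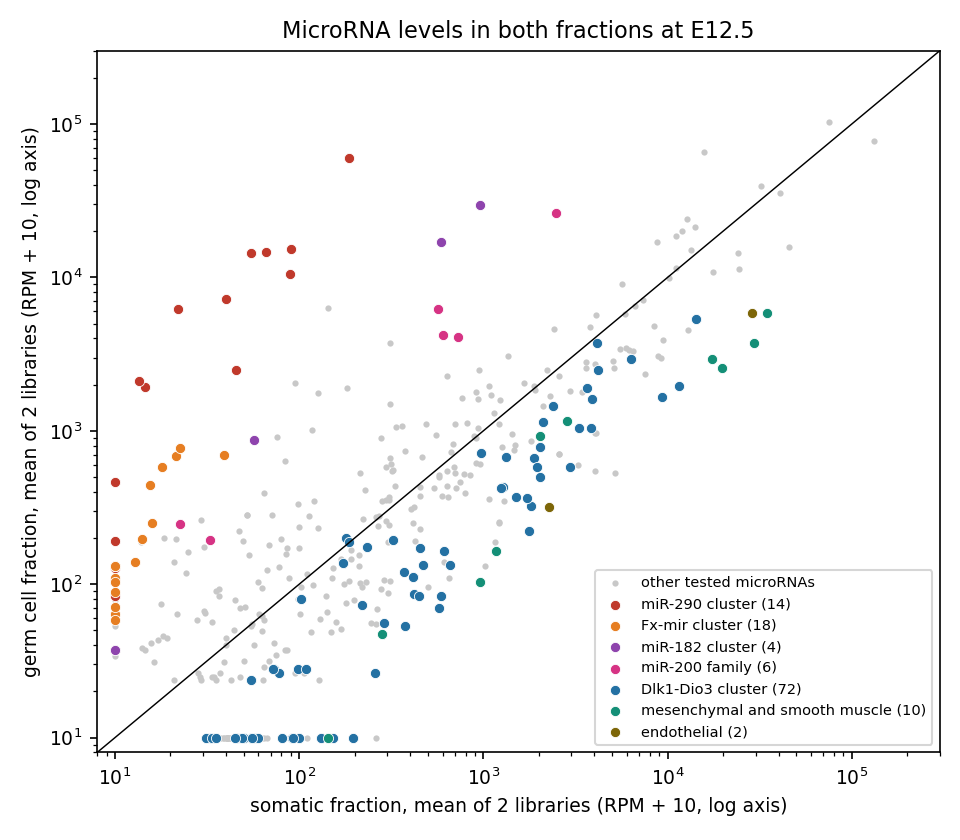
Mean level in the somatic fraction (x axis) against the germ cell fraction (y axis) for all tested microRNAs at E12.5, as RPM + 10 on log axes, each the mean of a female and a male library; the line marks equal levels and the numbers in the key are tested members. All 14 miR-290 cluster members and all 18 tested Fx-mir members sit above the line, the mesenchymal and endothelial members sit below it, and so do nearly all Dlk1-Dio3 members.

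The miR-290 cluster, best known from embryonic stem cells, where it promotes the cell cycle and pluripotency, had the highest median difference of all lists. All 14 listed members passed the filter, all 14 were higher in PGCs at equal totals, and all 14 were also higher on the deposited scale. Over all tested, 18.2% were higher at equal totals and 6.7% on the deposited scale. Their median log2 difference was 7.16 (range 3.02 to 8.35), against -0.63 over all tested. The cluster took 12.8% of reads in female PGCs (95% Clopper-Pearson interval 12.6 to 13.0) and 14.3% in male PGCs (14.1 to 14.5), against 0.0421% (0.0389 to 0.0456) and 0.0619% (0.0578 to 0.0661) in SC. These intervals cover counting error only.

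miR-292a-5p, the most abundant of the cluster, stood at 56126 RPM in females and 63994 RPM in males, against 152.1 and 198 RPM in SC. Both PGC libraries were far above both SC libraries (a ratio of means of 343), and the fitted log2 difference was 8.35 ± 1.15 (SE, limma adjusted p = 0.000612). miR-291a-5p stood at 7002 and 5468 RPM in PGCs against 6.03 and 18.1 RPM in SC, a log2 difference of 8.19. miR-294-3p stood at 15569 and 13656 RPM against 38.9 and 72.4 RPM (log2 7.84), and miR-295-3p at 15875 and 14568 against 71.0 and 88.4 RPM (log2 7.41). Both are among the members that speed the cell cycle of embryonic stem cells. The remaining members with large differences were miR-292a-3p (log2 8.09), miR-291a-3p (7.50), miR-290a-5p (7.27), miR-291b-5p (7.05), miR-293-3p (6.69), miR-293-5p (5.56) and miR-294-5p (5.50).

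For miR-294-5p, listed at 0 in both SC libraries and at 534 and 369.2 RPM in PGCs, the level in PGCs was at least 129-fold higher than the SC floor of 5 reads per library. In all, 4 members were listed at 0 in both SC libraries. These passed the filter only through PGCs and had to differ, so the count of 14 higher members is a description. The 2 sexes differed within the cluster: miR-293-3p stood at 5210 RPM in female and 15719 RPM in male PGCs, and miR-293-5p at 1163 and 3768 RPM. miR-292a-3p, in contrast, stood at 15683 and 13031 RPM. The ratio of female to male PGCs thus differed among members of the cluster.

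Summed by seed, the 3 microRNAs with CUCAAAC reached 59051 and 70205 RPM in PGCs against 182.9 and 246 RPM in SC, a ratio of means of 301.7. The 5 with AAGUGCU reached 38398 and 36189 RPM against 243 and 296 RPM, a ratio of 139. Within that seed the miR-302 cluster, an embryonic stem cell cluster active earlier in development, added little. miR-302b-3p stood at 156 and 185 RPM in PGCs against 60.3 and 56.5 RPM in SC (log2 1.39 ± 0.45, SE, limma adjusted p = 0.0261), and on the deposited scale its difference was -1.95. miR-302d-3p overlapped between the fractions, at 36.0 and 54.3 RPM against 44.9 and 45.6 RPM. Of the 5 listed members of the miR-302 cluster, 3 were tested, 1 was higher and none was lower, with a median of -0.02. Its share was 0.0222% and 0.0239% in PGCs against 0.0125% and 0.0130% in SC.

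**Figure D2:**
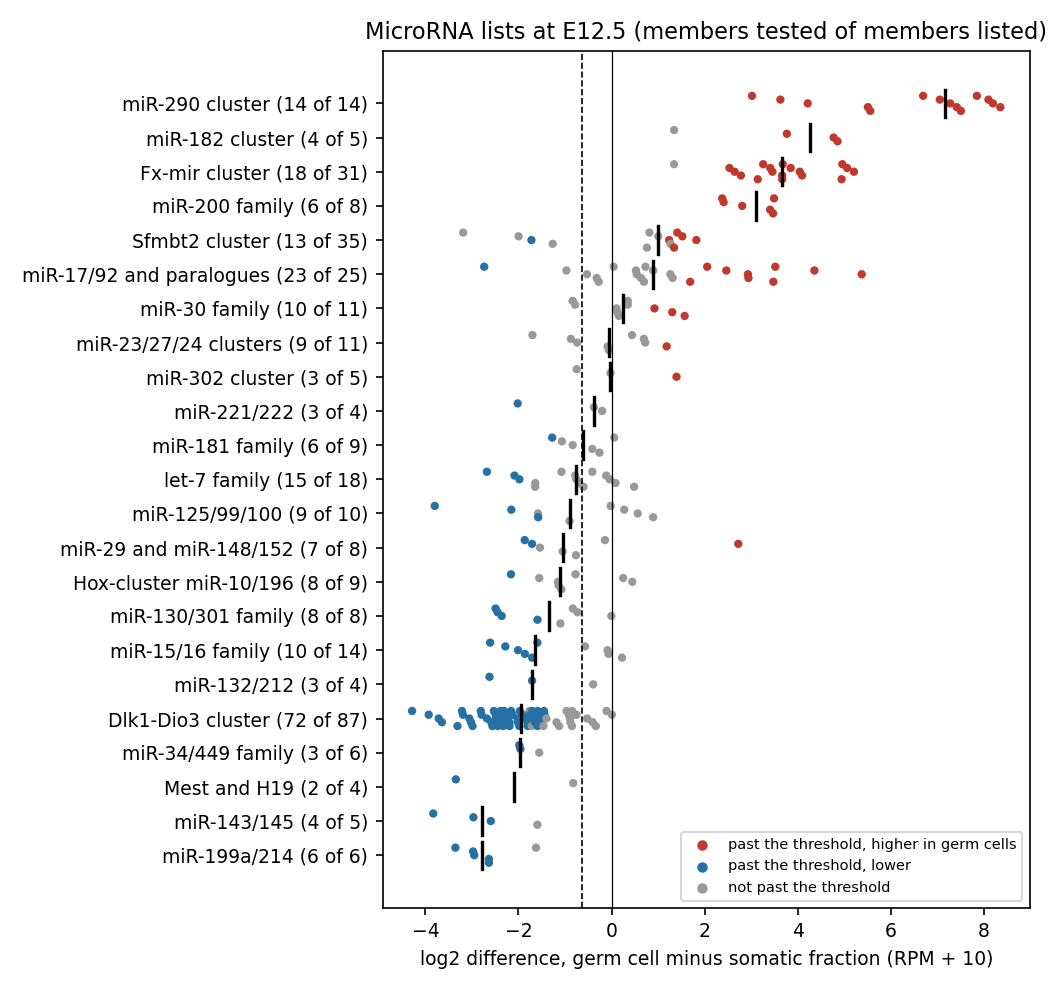
Fitted log2 difference, germ cell minus somatic fraction, of each tested member of 23 microRNA lists at E12.5 (x axis, on RPM + 10), with members tested of members listed in parentheses; thick bars are list medians, the dashed line is the median of all tested. The miR-290 cluster lies farthest right with a median of 7.16, and the lists of miR-199a with miR-214 and of miR-143 with miR-145 lie farthest left.

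The miR-182 cluster, expressed in sensory cells and in germ cells, took 3.05% and 6.46% of reads in female and male PGCs against 0.142% and 0.174% in SC. miR-182-5p, seventh in rank in PGCs, stood at 18585 and 40842 RPM against 834 and 1068 RPM, a log2 difference of 4.85 ± 0.70 (SE, limma adjusted p = 0.000669). miR-183-5p stood at 11451 and 22430 RPM against 531 and 629 RPM (log2 4.77), and miR-96-5p at 456 and 1260 RPM against 51.6 and 42.0 RPM (log2 3.76). In each of the 3, the male PGC library stood well above the female one, and both stood above SC. Of the 5 listed members 4 were tested and 3 were higher; on the deposited scale none of the 4 passed, although their median there was 1.29.

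The miR-200 family, which represses the transcription factors Zeb1 and Zeb2, was higher for all 6 tested of its 8 listed members (median log2 3.10). It took 3.73% and 4.54% of PGC reads against 0.418% and 0.459% of SC reads. miR-200b-3p stood at 23956 and 28772 RPM in PGCs and at 2301 and 2654 RPM in SC (log2 3.40 ± 0.49, SE, limma adjusted p = 0.000669). Its seed partners miR-200c-3p and miR-429-3p differed by 3.47 and 2.81 on the log2 scale. miR-200a-3p, whose seed differs, stood at 2524 and 5652 RPM against 724 and 716 RPM (log2 2.38). On the deposited scale none of the 6 passed, and miR-200b-3p was at -0.13, so this group's call does not hold on that scale. With scaling by the median of ratios all 6 were higher, and at the common floor of 29.98 RPM 5 were. Leaving out a single library left 3 to 6 of the 6.

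The Fx-mir cluster (chrX:66776760-66814017 for its largest block), known from testis, was low in reads but far higher in PGCs. Of its 31 listed members, 18 passed the filter; a member listed at 0 in SC could pass only through PGCs, so such members had to differ, and the 17 of 18 that were higher are a description. In all 31, the summed share was 0.433% and 0.479% in PGCs against 0.00462% and 0.0130% in SC. miR-741-3p stood at 611 and 918 RPM in PGCs against 3.35 and 21.7 RPM in SC, a log2 difference of 5.21 ± 0.95 (SE, limma adjusted p = 0.00175). miR-871-3p stood at 713 and 635 RPM against 5.36 and 17.4 RPM (log2 5.06), and miR-470-5p at 731 and 402 RPM against 10.05 and 5.79 RPM (log2 4.96). miR-881-3p stood at 444 and 934 RPM against 21.4 and 36.9 RPM (log2 4.09). None of the 4 overlapped between the fractions, but neither did 79.9% of all tested (30% with PGCs above). Of the 17, 9 were listed at 0 in both SC libraries. The mature sequences listed as miR-465a-3p, miR-465b-3p and miR-465c-3p are identical, so reads cannot be assigned among them.

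The miR-17/92 list, which drives proliferation and includes the paralogous clusters on chromosomes 5 and X, took 13.7% and 16.2% of PGC reads against 6.25% and 6.54% of SC reads. Of its 25 members 23 were tested, 9 were higher and 1 was lower, with a median of 0.89; on the deposited scale none was higher and 15 were lower. miR-92a-3p was its most abundant member. It stood at 77378 and 54362 RPM in PGCs and at 17289 and 14113 RPM in SC (log2 2.05 ± 0.34, SE, limma adjusted p = 0.00124; -1.48 on the deposited scale, not past the threshold). Its reads cannot be divided between its genomic copies.

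By cluster, the 7 mature microRNAs specific to the X-linked cluster summed to 6457 and 12798 RPM in PGCs against 315 and 368.7 RPM in SC; all 7 were tested and 6 were higher. The 8 specific to the chromosome 14 cluster summed to 21306 and 51364 RPM against 19240 and 21957 RPM; 7 were tested, none was higher and 1 was lower. The 6 of the chromosome 5 cluster summed to 29496 and 41548 RPM against 24099 and 27390 RPM. Of these, 1 was higher and none was lower. In the whole list, 2 of the 9 higher calls were listed at 0 in both SC libraries. Those 2 passed the filter only through PGCs and had to differ, so the counts by cluster are a description. At the common floor of 29.98 RPM, 7 members of the list were higher. Over all tested, 18.2% were higher and 31.6% lower.

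Of the AAAGUGC microRNAs, miR-20b-5p stood at 4047 and 8546 RPM in PGCs against 121 and 144.1 RPM in SC (log2 5.37 ± 0.96, SE, limma adjusted p = 0.00168). miR-106a-5p stood at 1397 and 2666 RPM against 74.4 and 96.3 RPM (log2 4.36). Both are X-linked and did not overlap between the fractions, which held for 79.9% of all tested (30% with PGCs above). miR-106a-5p and miR-363-3p were chosen after their values were seen. miR-20a-5p, which differs from miR-20b-5p at U1C and U10C, stood at 8999 and 28294 RPM in PGCs and at 10582 and 11642 RPM in SC, an overlap. miR-17-5p stood at 11774 and 22191 RPM against 7977 and 9483 RPM (log2 0.89, limma adjusted p = 0.0789), and miR-93-5p at 14490 and 25742 RPM against 10935 and 13011 RPM (log2 0.69, adjusted p = 0.161). Neither passed the threshold. Of the AUUGCAC microRNAs, the X-linked miR-363-3p stood at 617 and 1178 RPM against 62.3 and 68.8 RPM (log2 3.52).

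The difference between the X-linked and the other clusters was not tested itself. On the deposited scale, miR-20b-5p, miR-106a-5p and miR-363-3p differed by 1.93, 0.97 and 0.17 on the log2 scale and did not pass, while miR-17-5p, miR-20a-5p and miR-93-5p were lower, at -2.64, -3.01 and -2.84.

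Another X-linked cluster lay on the opposite side. The miR-322 to miR-450 cluster (chrX:53048008-53054327, minus strand) holds miR-322 and miR-503, relatives of miR-16 that slow the cell cycle. Of its 11 listed mature microRNAs 10 were tested, 7 were lower and none was higher (median -1.87). miR-322-5p stood at 180 and 179 RPM in PGCs against 1101 and 1192 RPM in SC (log2 -2.61 ± 0.42, SE, limma adjusted p = 0.00104). miR-503-5p stood at 324 and 168 RPM against 1420 and 975 RPM (log2 -2.28), and miR-322-3p at 2740 and 1922 RPM against 7003 and 8059 RPM (log2 -1.71). Over the whole X chromosome 59 microRNAs were tested, 22 were higher and 18 lower, with a median of 0.08 and a similar total share in all 4 libraries (2.87% and 2.96% in PGCs, 3.09% and 3.01% in SC).

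**Figure D3:**
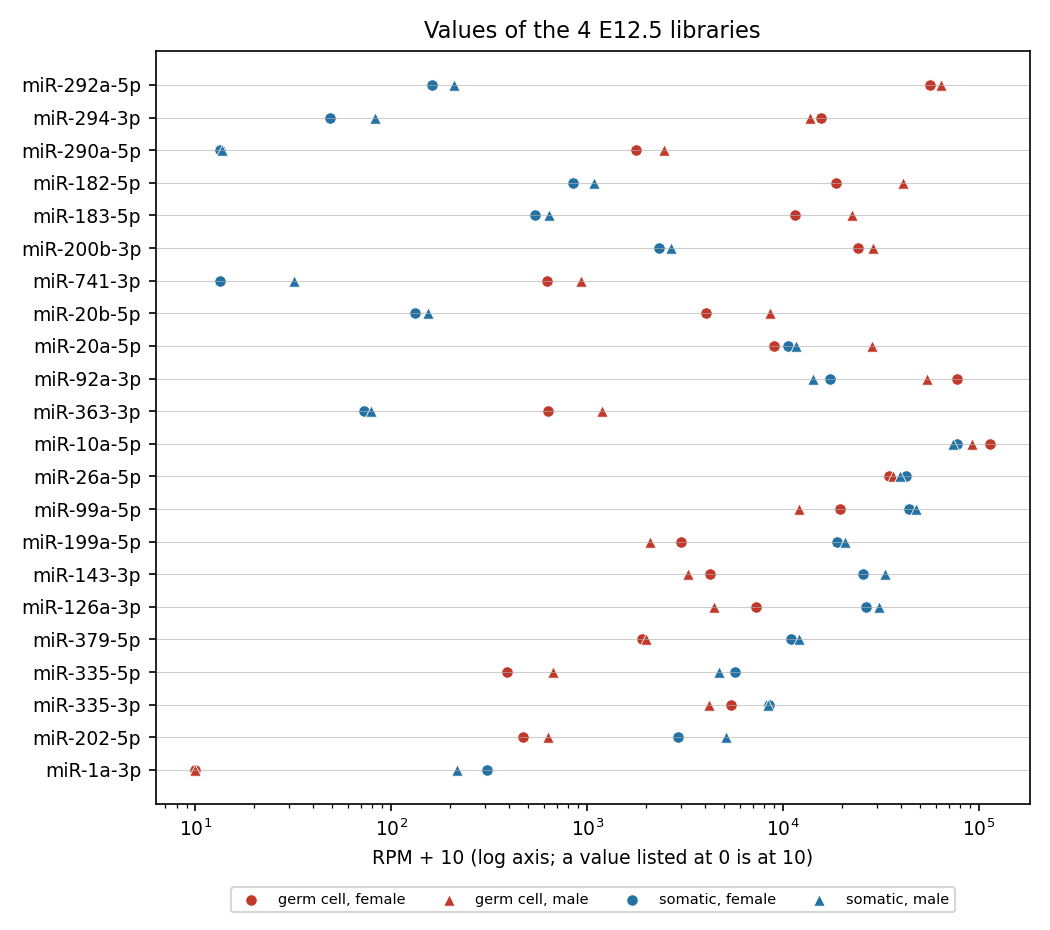
Values of 22 named microRNAs in the 4 E12.5 libraries (x axis, RPM + 10, log axis); red is the germ cell and blue the somatic fraction, circles are female and triangles male. miR-20a-5p overlaps between the fractions while its paralogue miR-20b-5p does not, and miR-335-5p is more than 7 times lower in each germ cell library than in either somatic one while miR-335-3p is not.

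The most abundant microRNAs of both fractions were the paralogues miR-10a-5p and miR-10b-5p, which lie in the Hox clusters of chromosomes 11 and 2 and differ at a single base, U12A, outside the seed. Their rank order was reversed between the fractions. miR-10a-5p stood at 113744 and 92299 RPM in PGCs and at 76903 and 73662 RPM in SC (log2 0.44, limma adjusted p = 0.594). miR-10b-5p stood at 88697 and 66758 RPM in PGCs and at 131734 and 131716 RPM in SC (log2 -0.78, adjusted p = 0.064). Neither passed the threshold, although neither overlapped between the fractions, which held for 79.9% of all tested. Together they took 20.2% and 15.9% of PGC reads and 20.9% and 20.5% of SC reads. miR-196a-5p, also from the Hox clusters, stood at 1307 and 608 RPM in PGCs against 4571 and 3540 RPM in SC (log2 -2.16 ± 0.67, SE, limma adjusted p = 0.0216). It was the only 1 of the 8 tested Hox-cluster microRNAs to pass, out of 9 listed.

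A like pair was miR-99a-5p and miR-99b-5p, which share a seed and act on the insulin and mTOR pathway. miR-99a-5p, among the most abundant microRNAs of SC, stood at 43907 and 47602 RPM there and at 19514 and 12027 RPM in PGCs (log2 -1.58 ± 0.40, SE, limma adjusted p = 0.00834). miR-99b-5p overlapped between the fractions at 47475 and 31829 RPM against 33097 and 31332 RPM. Of the 10 most abundant microRNAs of each fraction, 4 were shared; miR-26a-5p, one of them, stood at 34855 and 36324 RPM in PGCs and 42221 and 39621 RPM in SC (log2 -0.20 ± 0.25, SE). miR-30c-5p was higher in PGCs by 0.92 on the log2 scale (limma adjusted p = 0.0461), a call that did not hold without any 1 of the 4 E12.5 libraries (adjusted p 0.0702 to 0.234). miR-125a-5p (log2 0.56) and miR-125b-5p (-0.90), homologues of the worm timing microRNA lin-4, did not pass. miR-21a-5p, abundant in proliferating somatic cells, stood at 6726 and 15827 RPM in PGCs against 24129 and 24612 RPM in SC and was lower (log2 -1.24, adjusted p = 0.0324).

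The SC side was led by mesenchymal microRNAs. The list of miR-199a, miR-199b and miR-214, microRNAs of mesenchyme, took 7.73% and 7.59% of SC reads against 1.68% and 0.869% of PGC reads. All 6 listed members were tested and 5 were lower in PGCs (median -2.79). miR-199a-3p stood at 35813 and 33427 RPM in SC against 7710 and 4013 RPM in PGCs (log2 -2.63 ± 0.57, SE, limma adjusted p = 0.00379). Its mature sequence is identical to that of miR-199b-3p, so the split between these names is uncertain. miR-199a-5p stood at 18787 and 20689 RPM against 2992 and 2090 RPM (log2 -2.97). miR-199b-5p and miR-214-5p differed by -3.35 and -2.95. miR-214-3p did not pass, at 2772 and 2863 RPM in SC against 1840 RPM in female and 445 RPM in male PGCs.

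miR-143 and miR-145, of smooth muscle and mesenchyme, gave a similar picture: 3 of the 4 tested of 5 listed were lower (median -2.78). miR-143-3p stood at 25568 and 32949 RPM in SC against 4215 and 3252 RPM in PGCs (log2 -2.97 ± 0.51, SE, limma adjusted p = 0.00151). miR-145a-3p was lower too (log2 -2.59), and miR-145a-5p was not past the threshold, at 2287 and 1754 RPM against 1541 and 277 RPM.

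miR-126a, which marks endothelium, was lower in PGCs for both arms. miR-126a-3p stood at 26585 and 30917 RPM in SC against 7254 and 4431 RPM in PGCs (log2 -2.34 ± 0.46, SE, limma adjusted p = 0.00272), and miR-126a-5p at 2373 and 2132 RPM against 377.7 and 239 RPM (log2 -2.86).

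The imprinted Dlk1-Dio3 region (chr12:109563710-109747949 over its listed members), where microRNAs are expressed from the maternal chromosome, held the most members of all lists. Of 87 listed, 72 were tested, 54 were lower in PGCs and none was higher, with a median of -1.94 against -0.63 over all tested. Of the 54, 21 were listed at 0 in both PGC libraries; these passed the filter only through SC and had to differ, so the count and the median are a description. In all, 41 members were lower when values under 29.98 RPM were set to 0 everywhere. With such microRNAs set to the smallest difference that the floor allows, the list's median was -1.54 and that of all tested -0.26. voom on the recovered reads called 35. There were 34 lower without the male PGC library, 28 without either SC library and 28 to 56 on leaving out a single library. The region took 10.2% and 9.82% of SC reads and 4.48% and 2.51% of PGC reads.

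miR-541-5p, its most abundant member, stood at 14096 and 14546 RPM in SC against 6505 and 4257 RPM in PGCs (log2 -1.44 ± 0.40, SE, limma adjusted p = 0.0128). miR-379-5p stood at 10898 and 12028 RPM against 1888 and 1982 RPM (log2 -2.56 ± 0.34, adjusted p = 0.000612), and miR-411-5p at 8638 and 9970 RPM against 1697 and 1596 RPM (log2 -2.49). For these 2 the female and the male library were close within each fraction. miR-376c-3p, miR-380-3p and miR-369-3p differed by -3.64, -3.05 and -2.99. miR-127-3p, which targets the imprinted gene Rtl1, did not pass (log2 -1.18, adjusted p = 0.0873), at 4101 and 1716 RPM in PGCs against 8083 and 4510 RPM in SC.

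miR-335 was unequal between its arms. miR-335-5p stood at 377.7 and 657 RPM in PGCs against 5663 and 4695 RPM in SC (log2 -3.34 ± 0.48, SE, limma adjusted p = 0.000669). miR-335-3p, from the same hairpin, stood at 5426 and 4170 RPM against 8490 and 8379 RPM (log2 -0.83, adjusted p = 0.147). The 5p arm was thus far below the 3p arm in PGCs and closer to it in SC; the difference between the arms was not tested. Over the series, 119 hairpins had both arms tested. In 99 both arms had the same sign, in 44 both were called the same way (16 higher, 28 lower), in 35 only 1 arm was called and in none were the arms called in opposite directions.

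Among the gonadal microRNAs, miR-202-5p, which is expressed in the supporting lineage, stood at 2909 and 5097 RPM in female and male SC against 462 and 619 RPM in PGCs (log2 -2.83 ± 0.59, SE, limma adjusted p = 0.00341). Its other arm, miR-202-3p, did not pass (adjusted p = 0.375), at 97.1 and 280 RPM against 89.9 and 48.9 RPM. miR-140-3p and miR-140-5p, regulators of cartilage that are also found in the developing testis, stood lower in PGCs by 0.66 and 1.19 on average on the log2 scale and did not pass. The list on gonadal sex differentiation took 1.30% and 3.43% of reads in female and male PGCs against 2.02% and 2.52% in SC. Its summed share was thus lower in female and higher in male PGCs. At the common floor of 29.98 RPM, 2 of its members were lower. Over all tested microRNAs, 31.6% were lower and 18.2% higher. Of the 13 tested microRNAs of the list on gonadal sex differentiation (18 listed), 3 were lower and none was higher; 1 was lower without the female PGC library or either SC library, and 7 without the male PGC library.

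let-7, which opposes pluripotency, had 3 of 15 tested members lower and none higher (18 listed; median -0.76), and took 2.26% and 1.98% of PGC reads against 3.53% and 3.27% of SC reads. Its member let-7c-5p stood at 4460 and 2107 RPM in PGCs against 6368 and 6578 RPM in SC (log2 -1.08, limma adjusted p = 0.0648). The miR-15/16 family, which restrains the cell cycle and includes miR-322 and miR-503, had 6 of 10 lower and none higher. The 6 include both arms of miR-322 and of miR-503, from the X-linked cluster described above. Of the 6, 2 were listed at 0 in both PGC libraries, and 4 members were lower at the common floor of 29.98 RPM. With microRNAs at 0 set to the smallest difference that the floor allows, the list's median was -0.33 and that of all tested -0.26. The family of miR-130 and miR-301 had 4 of 8 lower, all of them arms of miR-301a and miR-301b. Of these, 2 were listed at 0 in both PGC libraries, and 2 members were lower at the common floor. The family of miR-34 and miR-449 had 2 of 3 lower, both arms of miR-34c, of which 1 was listed at 0 in both PGC libraries. At the common floor 0 of its members were lower. Members at 0 in PGCs passed the filter only through SC, so these counts are a description. Over all tested, 31.6% were lower and 18.2% higher. Leaving out a single library left 1 to 5 lower in let-7, 4 to 6 in the miR-15/16 family, 2 to 4 in that of miR-130 and miR-301 and 0 to 2 in that of miR-34 and miR-449, in each case with the fewest without an SC library.

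The miR-30 family had 3 of 10 higher, of which 0 were left without the female SC library and 1 without any other E12.5 library. The miR-125/99/100 list had 3 of 9 lower, close to the share over all tested. In the list of miR-29, miR-148 and miR-152, whose members target DNA methyltransferases, 1 of 7 was higher and 2 were lower (1 without the female PGC library or either SC library, 4 without the male PGC library). miR-152-3p stood at 612 and 787 RPM in PGCs against 2525 and 2584 RPM in SC (log2 -1.87), while miR-148a-3p, with the same core seed, did not pass (log2 -0.76, adjusted p = 0.119). miR-181a-5p was the only 1 of 6 in its family to pass (log2 -1.28). The Sfmbt2 cluster of repeated intronic hairpins on chromosome 2, many of them near-identical, had 5 of 13 tested members higher and 1 lower (35 listed); 2 were higher without the female PGC library and 1 without either SC library. miR-669c-5p led it, at 2704 and 1852 RPM in PGCs against 653 and 601 RPM in SC (log2 1.82).

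Marker microRNAs were compared between the fractions. The primordial germ cell list (the miR-290 and miR-302 clusters) had 15 of 17 tested members higher in PGCs, and summed to 0.426% (female) and 0.522% (male) of its PGC level in SC. The 15 were the 14 members of the miR-290 cluster described above and 1 of the 3 tested miR-302 members. Of the 15, 4 were listed at 0 in both SC libraries and passed the filter only through PGCs. Over all tested, 18.2% were higher. The marker lists were chosen with earlier results of these data known, so this is a description, not a separate check of the label. Mesenchymal and smooth muscle markers had 8 of 10 lower in PGCs, with summed shares of 2.26% and 1.22% in PGCs against 10.6% and 11.1% in SC, so their PGC level was 21.4% and 11.04% of the SC level. For the endothelial marker it was 26.4% and 14.1%, and for the gonadal somatic list 36.8% and 28.97%, with 2 of 6 lower (1 without the female PGC library or either SC library, 3 without the male PGC library). Over all tested, 31.6% were lower in PGCs, so the 2 of 6 of the gonadal somatic list were close to that share. At the common floor of 29.98 RPM, 1 member of that list was lower. Whether somatic cells left in the PGC fraction account for any of these PGC levels was not tested.

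Muscle and blood markers were scarce. miR-1a-3p, of heart and skeletal muscle, was listed at 0 in both PGC libraries and stood at 297.5 and 204.99 RPM in SC, at least 8.80-fold higher than the PGC floor. miR-206-3p was listed at 0 in both PGC libraries and stood at 137 RPM in female and 10.1 RPM in male SC. The erythroid miR-451a was at 71.9 RPM in female and 0 in male PGCs against 247 and 304 RPM in SC (log2 -3.31, limma adjusted p = 0.0413), and miR-486a-5p overlapped. Of the 3 tested leukocyte markers, miR-155-5p (log2 2.23) and miR-150-5p (1.61, limma adjusted p = 0.0296) were higher in PGCs and miR-223-3p was lower, listed at 0 in both PGC libraries. The call of miR-150-5p did not hold without any 1 of the 4 E12.5 libraries (adjusted p 0.0545 to 0.206).

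Of the 7 tested neural markers (14 listed), 1 was higher and 3 were lower. Over all tested, 18.2% were higher and 31.6% lower. Of the 3 lower, 1 was listed at 0 in both PGC libraries and passed the filter only through SC. At the common floor of 29.98 RPM, 1 member was higher and 1 lower. With microRNAs at 0 set to the smallest difference that the floor allows, the list's median was 0.0 and that of all tested -0.26. miR-9-5p stood at 1073 and 2704 RPM in PGCs against 154.8 and 189 RPM in SC (log2 3.24 ± 0.94, SE, limma adjusted p = 0.0155). miR-7a-5p (log2 -1.69) and miR-7b-5p (-2.94) were lower, and miR-128-3p did not pass. The kidney and epithelial list had 1 of 5 higher: miR-204-5p stood at 2224 and 1265 RPM in PGCs against 124.6 and 109 RPM in SC (log2 3.74 ± 0.55, SE, adjusted p = 0.000735). The liver list had 1 of its 2 members tested and none called.

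Of the 82 microRNAs named here that were called, 23 were no longer called when at least 1 of the 4 E12.5 libraries was left out; the value after each is its highest adjusted p (limma) over those libraries. Any 1 of the 4 ended the call of miR-150-5p (0.206), miR-30c-5p (0.234) and miR-7b-5p (0.166). The male PGC library or either SC library did so for miR-145a-3p (0.0706), miR-196a-5p (0.13), miR-200a-3p (0.153), miR-302b-3p (0.12), miR-451a (0.295), miR-541-5p (0.0814) and miR-9-5p (0.0979). The female PGC library or either SC library did so for miR-21a-5p (0.235) and miR-455-5p (0.217), and either SC library for miR-181a-5p (0.0649) and miR-429-3p (0.0564). The female SC library did so for miR-218-5p (0.0616), miR-503-5p (0.0605) and miR-690 (0.0649), and the male SC library for miR-322-3p (0.0603). The female PGC or the female SC library did so for miR-542-3p (0.06) and miR-7a-5p (0.168), and either PGC library or the female SC library for miR-206-3p (0.4). The male PGC or the female SC library did so for miR-881-3p (0.058), and the male PGC or the male SC library for miR-99a-5p (0.06). Of these, miR-30c-5p, miR-7b-5p, miR-206-3p and miR-451a also lost their calls without single libraries of other days (0.0525 to 0.0687).

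**Figure D4:**
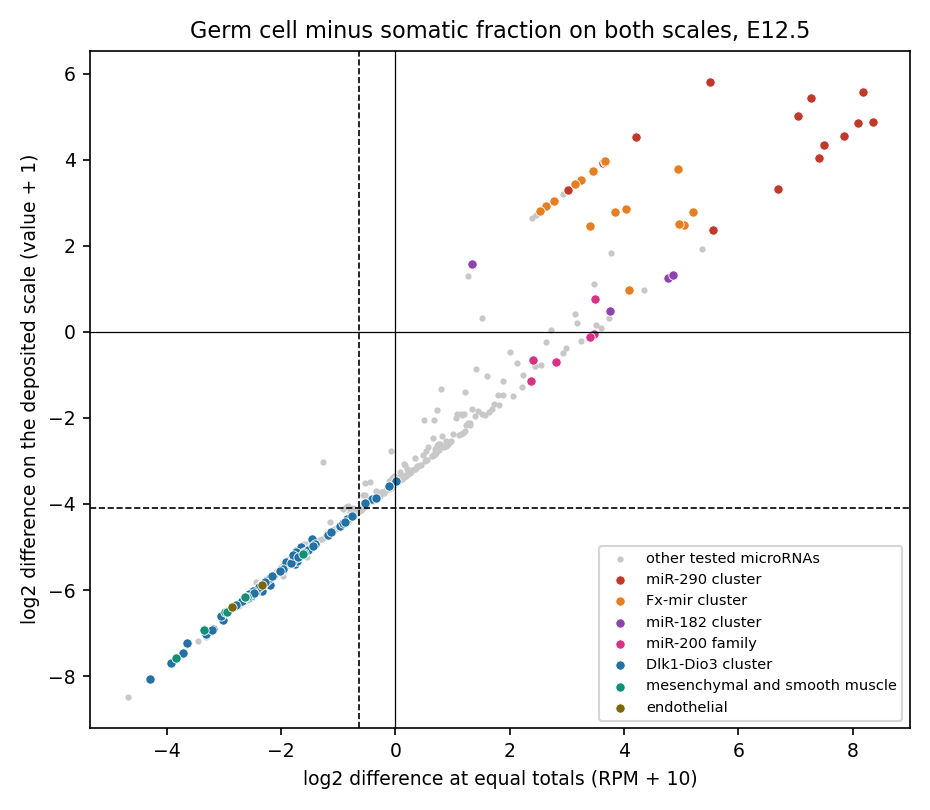
Fitted log2 difference, germ cell minus somatic fraction at E12.5, at equal totals (x axis, RPM + 10) against the deposited scale (y axis, value + 1) for all tested microRNAs; dashed lines are the medians, -0.63 and -4.10. The miR-290 cluster is above 0 on both axes, while the miR-200 family is above 2 at equal totals and mostly below 0 on the deposited scale.

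The female and the male difference were compared as values, since each rests on 1 library per fraction. Among the 270 tested microRNAs with a mean of at least 100 RPM, the 2 differences were a median of 0.65 apart on the log2 scale, 70 were more than 1 apart and 37 had opposite signs. miR-485-5p was at 288 RPM in female and 43.4 RPM in male PGCs, against 204.3 and 245 RPM in SC, and miR-574-5p at 240 and 48.9 RPM against 169 and 234 RPM. In the other direction, miR-101b-3p was at 125.9 RPM in female and 700.4 RPM in male PGCs, against 531 and 528 RPM in SC. miR-674-5p was at 0 and 130 RPM against 172 and 170 RPM, and miR-542-3p at 83.9 and 396 RPM against 1262 and 1148 RPM. These 5 were named for their large sex gaps. In PGCs 1 read is 5.995 (female) and 5.43 RPM (male), against 0.67 and 0.724 RPM in SC, so low PGC values rest on few reads. Between the sexes, the SC values of these 5 lay closer together than the PGC values. That was not so for every microRNA with a large gap: miR-202-3p, whose 2 differences were 2.20 apart, stood at 97.1 and 280 RPM in SC against 89.9 and 48.9 RPM in PGCs. The GC content of the mature sequence was described by Spearman rho across the 86.8% of tested microRNAs with a RefSeq sequence. At E12.5 rho was 0.29 with the female-minus-male difference of the PGC libraries and 0.175 with that of the SC libraries. With the PGC-SC difference it was 0.10 at E12.5, -0.33 at E11.5 and -0.083 at E13.5. The part of GC content in these values was not tested.

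The difference between the fractions was then set against that of the day before. At E11.5 the female PGC library held only 0.235% of reads from the miR-290 cluster, against 7.13% in the male one, so it goes against its label as a germ cell library, and what follows rests in part on it. By limma (Benjamini-Hochberg), 4 differences were higher at E12.5 than at E11.5 (0.924% of those tested) and 9 were lower (2.08%), with 28.2% at an unadjusted p under 0.05. The 4, chosen with the next 9 for their calls and not all by the naming rule, were miR-465a-3p, miR-465b-3p and miR-465c-3p, which share a sequence, and miR-3473b. The 9 were miR-1a-3p, miR-329-5p, miR-666-5p, miR-335-5p, miR-143-5p, miR-125b-2-3p, miR-330-5p, miR-379-3p and miR-379-5p. All 9 were also lower in PGCs at E12.5. The PGC floor (female, male) was 29.98 and 27.15 RPM at E12.5, against 4.09 and 11.55 RPM at E11.5. A microRNA at 0 in PGCs on the later day, such as miR-1a-3p, may thus hold a level that the earlier day could list. The part of depth in these changes was not tested.

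miR-335-5p is an example that had reads in both PGC libraries on both days. At E11.5 it stood at 6276 and 4244 RPM in PGCs and at 5689 and 3841 RPM in SC, and at E12.5 at 377.7 and 657 RPM in PGCs and 5663 and 4695 RPM in SC. The SC ranges of the 2 days overlapped, while both PGC libraries were lower on the later day than on the earlier one. The difference between the days was -3.49 ± 0.68 (log2, SE, limma adjusted p = 0.0275). miR-379-5p stood at 15680 and 10972 RPM in PGCs and 15307 and 12814 RPM in SC at E11.5, and changed by -2.46 ± 0.48 (adjusted p = 0.0275). miR-465b-3p was listed at 0 in all 4 E11.5 libraries and stood at 156 and 86.9 RPM in PGCs at E12.5.

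No call of this comparison was left when any 1 of the female PGC or either SC library of E11.5, or of the female PGC or either SC library of E12.5, was left out, and voom called none. Without the male PGC library of E11.5, 45 differences were higher and 30 lower, and without the male PGC library of E12.5, 13 were called. The mesenchymal and endothelial markers moved with it: in PGCs the mesenchymal list took 9.73% and 6.63% of reads at E11.5 against 2.26% and 1.22% at E12.5, and the endothelial marker 5.14% and 2.78% against 0.763% and 0.467%. In SC the mesenchymal list took 13.1% and 9.89% at E11.5 and 10.6% and 11.1% at E12.5. Their part in the difference was not tested.

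Against the day after, none of the differences passed in either direction (0% called) in limma, with 28 at an unadjusted p under 0.05 and a smallest adjusted p of 0.0683; voom also called none. Other settings called some: 8 (7 higher, 1 lower) without the female, the male or both E11.5 PGC libraries, 14 (all lower) with a pseudocount of 1 RPM, 11 (4 higher, 7 lower) at the common floor of 29.98 RPM, 1 without the male E12.5 PGC library and 3 without the female E13.5 SC library. The miR-290 cluster took 9.78% and 11.9% of PGC reads at E13.5, and its SC share was 0.366% and 0.604%, above the 0.0421% and 0.0619% of E12.5. miR-292a-5p stood at 706 and 1952 RPM in SC at E13.5, against 152.1 and 198 RPM at E12.5. The Fx-mir cluster took 3.22% and 3.24% of PGC reads at E13.5, against 0.433% and 0.479% at E12.5, while its SC share was 0.283% and 0.323%. With all 12 libraries, the change between these days was not past the threshold for any member of either cluster.

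**Figure D5:**
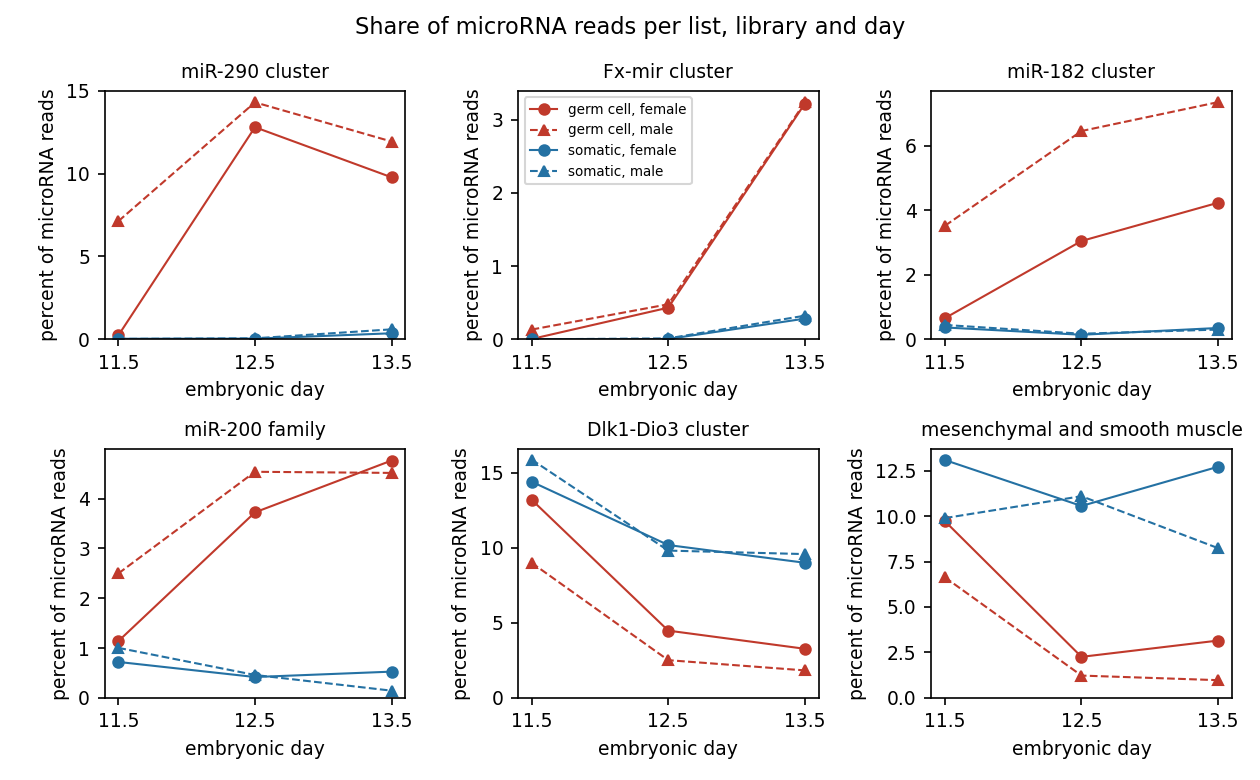
Share of microRNA reads (y axis, percent, from 0) of 6 lists in each of the 12 libraries by embryonic day (x axis); red is the germ cell and blue the somatic fraction, circles with solid lines are female and triangles with dashed lines male. At E12.5 the miR-290 cluster is at 12.8% and 14.3% in germ cells, and the female germ cell library of E11.5 lies near the somatic ones.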

How the data were processed

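The deposited values are a normalized signal: counts per mature microRNA that the authors divided by a size factor per library. Per the submitters' processing notes, the tools were FastQC, Trim Galore, Bowtie 1.1.2, GRCm38 and DESeq; how reads were counted, and with which annotation, is not given in the sources used here. All values (7392) were 0 or whole multiples, at a tolerance of 1e-06, of a step of the smallest value divided by 5, so reads were recovered and 0 was read as under 5 reads; columns without a sample numbered 0. Values were rescaled to 1000000 per library (RPM), filtered at a mean of 10 RPM over the 4 E12.5 libraries, and fitted as log2(RPM + 10) with limma 3.58.1 (R 4.3.3; empirical Bayes with trend) on all 12 libraries in 6 groups of cell fraction and day, with 6 residual degrees of freedom; tables and figures were made in Python. Contrasts gave the PGC-SC difference at E12.5 and its change against E11.5 and E13.5, each adjusted by Benjamini-Hochberg over all microRNAs tested. Depth ran from 166804 to 1492596 reads at E12.5, and intervals and floors cover counting error only. The fit was tested on simulated data.

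Named were, by rule, the 12 largest called differences in each direction with at least 100 RPM and the same sign in both sexes, the 10 most abundant per fraction, up to 4 members per list, the 5 largest sex gaps in each direction and the 5 largest changes between days. The members, the 24 family lists, the marker lists and the rule were chosen with earlier results of these data known. Whether the PGC and SC libraries of 1 sex and day came from the same pool of gonads was not established. The fit has no block for such a pairing, and alternatives are given at the end.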

Additional observations from a re-analysis of the deposited data

Results flagged for a closer look

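The PGC-SC difference changed from E11.5 to E12.5, by the test of the change itself, for 13 microRNAs, all in a comparison that holds the female E11.5 PGC library. Among those with a positive change, miR-465b-3p and miR-465c-3p changed by 3.66 each (log2), miR-3473b by 3.12 and miR-465a-3p by 2.78. Among those with a negative change, miR-1a-3p changed by -4.88, miR-329-5p by -3.81, miR-666-5p by -3.61, miR-335-5p by -3.49, miR-143-5p by -3.43, miR-125b-2-3p by -3.24, miR-330-5p by -3.17, miR-379-3p by -2.61 and miR-379-5p by -2.46.

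miR-106b-5p, miR-330-5p, miR-379-3p, miR-666-5p and the miR-465 members were named for these values, outside the naming rule. For 6 named microRNAs of at least 100 RPM, the PGC-SC difference had opposite signs in females and males at E12.5. These differences were not tested, since each rests on 1 library per fraction. The female difference minus the male one was 2.73 for miR-485-5p, 2.53 for miR-574-5p, 0.85 for miR-455-3p, -1.10 for miR-106b-5p, -1.51 for miR-20a-5p and -2.39 for miR-101b-3p (log2).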

How the results depend on the processing

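At E12.5, 49.9% of microRNAs tested were called. The deposited scale called 86.4% (6.7% higher, 79.7% lower), a minimum of 100 RPM, which tests fewer microRNAs, called 46.3% (26.7% lower), and voom called 19.6% lower. Leaving out 1 library in turn gave 29.1 to 50.1% called, 13.2 to 19.4% higher and 15.9 to 31.9% lower; the lone library left in a group is assumed to vary like the other groups. The cause of these shifts was not tested. voom, the common floor of 29.98 RPM, scaling by the median of ratios and leaving out libraries of other days were chosen after seeing the data. edgeR, DESeq2 and TMM were not run; the recovered reads were used in voom.

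The change against E11.5 gave 176 calls (2 higher, 174 lower) on the deposited scale, 43 (39 lower) with a pseudocount of 1 RPM, 0 in either direction with a pseudocount of 30 RPM, with a minimum of 100 RPM and in voom, 8 (5 lower) with no filter, 28 (12 higher, 16 lower) at the common floor and 7 higher under the median of ratios. Leaving out 1 library in turn gave 0 to 75 calls, 0 to 45 higher and 0 to 30 lower. The change against E13.5 gave 14 calls, all lower, with a pseudocount of 1 RPM, 8 (7 higher, 1 lower) without both E11.5 PGC libraries, 11 (4 higher, 7 lower) at the common floor, and 0 to 8 calls (0 to 7 higher, 0 to 3 lower) on leaving out 1 library in turn.

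The PGC and SC libraries of a day are matched here by sex alone, since a shared pool of gonads was not established. Across tested microRNAs the female-minus-male gap of PGCs correlated with that of SC at -0.092, 0.109 and 0.141 on the 3 days. These values cannot decide whether a pool was shared. With sex as a replicate block, 52.4% were called at E12.5 (60.5% in the 4 libraries alone), and 30 (8 higher, 22 lower) changed against E11.5.

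On the deposited scale 22 of 109 named differences changed sign: miR-302b-3p to -1.95, miR-200b-3p to -0.13, miR-200c-3p to -0.044, miR-429-3p to -0.71, miR-200a-3p to -1.14, miR-92a-3p to -1.48, miR-93-5p to -2.84, miR-20a-5p to -3.01, miR-17-5p to -2.64, miR-30c-5p to -2.61, miR-10a-5p to -3.09, miR-99b-5p to -3.26, miR-125a-5p to -2.97, miR-9-5p to -0.22, miR-128-3p to -3.15, miR-669c-5p to -1.70, miR-155-5p to -0.997, miR-150-5p to -1.03, miR-3473b to -0.80, miR-690 to -0.37, miR-877-5p to -0.77 and miR-455-3p to -3.21. Of the 22, 14 had been called at equal totals, and no called difference changed sign under the other settings. On leaving out 1 library in turn, 9 that were not called changed sign, with ranges of -0.27 to 0.22 for miR-302d-3p, -0.30 to 1.35 for miR-20a-5p, -0.95 to 0.40 for miR-106b-5p, -0.017 to 0.56 for miR-99b-5p, -1.20 to 0.27 for miR-486a-5p, -2.13 to 0.35 for miR-485-5p, -1.83 to 0.26 for miR-574-5p, -1.99 to 0.40 for miR-101b-3p and -0.0149 to 0.58 for miR-455-3p. miR-302d-3p stood at 0.080 under the median of ratios and 0.055 in voom.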

Other observations

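Some microRNAs outside every list were also called; those named here were chosen after their values were seen. miR-1291 stood at 4047 and 3426 RPM in female and male PGCs against 265 and 338 RPM in SC (log2 3.59 ± 0.54, SE, limma adjusted p = 0.000778). miR-690 stood at 570 and 678.7 RPM against 50.2 and 96.3 RPM (log2 2.98), and miR-877-5p at 498 and 271 RPM against 56.9 and 52.2 RPM (log2 2.55). On the SC side, miR-340-5p stood at 3880 and 2591 RPM in SC against 360 and 809 RPM in PGCs (log2 -2.53), and miR-218-5p, a microRNA of the Slit genes, at 10012 and 8332 RPM against 2470 and 3486 RPM (log2 -1.63).

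Also chosen after its values were seen, miR-29a-3p, which targets collagen transcripts and DNA methyltransferases, was the 1 higher member of the list of miR-29, miR-148 and miR-152. It stood at 102 and 157 RPM in PGCs against 8.71 and 13.0 RPM in SC (log2 2.72 ± 0.47, SE, limma adjusted p = 0.00154). Among the gonadal microRNAs, the arms of miR-455 stood apart, a gap that was not tested: miR-455-5p, likewise chosen after its values were seen, stood at 48.0 and 157 RPM in PGCs against 285 and 540 RPM in SC (log2 -2.03), while miR-455-3p stood at 408 and 266 RPM against 245 and 294.8 RPM and did not pass.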
